A study of Mus musculus with 6 samples.

Results

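The clonotypes described here are the T cell receptor β chains whose CDR3 ran to 17 or more amino acid residues, counted with both end residues. They were all coding clonotypes of that length, with no stop codon and no frameshift, in 6 clonotype libraries, and they numbered 7129 of 330061 coding clonotypes. The libraries came from CD4+ T cells of C57BL/6 wildtype mice in which the right ureter was clipped reversibly (RUUO) from day 0 to day 6 and the left ureter was obstructed (UUO) from day 17 until harvest on day 22. The obstructed left kidney and the spleen of each of 3 mice gave 1 library each, so that the kidney and spleen libraries are paired by mouse, and all 6 libraries carry the same genotype and both operations. CD4+ T cells of the kidney passed a negative isolation kit and then CD4 microbeads, those of the spleen only CD4 microbeads, and both were then FACS-sorted. No untreated or sham-operated mouse was analysed here, and β chain amplicons hold no marker genes, so the labelled cell type could not be checked against other transcripts.

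The CDR3 is the loop of the β chain that lies over the peptide in the MHC groove. It is built when a V, a D and a J gene segment are joined: bases are trimmed from the segment ends, short palindromic bases can be left by opening of the hairpin ends, and terminal transferase inserts bases that no gene encodes. The length of a CDR3 is therefore the sum of its germline, palindromic and inserted bases, and a long CDR3 must hold more of at least some of these. Mice have 2 D segments, Trbd1 upstream of the Trbj1 cluster and Trbd2 between the Trbj1 and Trbj2 clusters. In the RefSeq annotation of GRCm38.p6, Trbd1 spans chr6:41533201-41533212 (12 bases) and Trbd2 chr6:41542163-41542176 (14 bases). A clonotype was 1 combination of CDR3 nucleotide sequence, V and J gene, and its size was its number of unique molecular identifiers (UMIs), each of which marks 1 β chain mRNA that was reverse transcribed.

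A long clonotype with the most UMIs of its library, for 5 libraries, shows how such a loop is put together. Capitals mark the stretch aligned to the D segment, with any palindromic bases at its ends included. The lower-case bases are V bases on the left and J bases on the right. Inserted bases and other palindromic bases next to the capitals are in lower case too. In kidney 1 a pair of long clonotypes had 3 UMIs each. One is shown for it, and the other is the clonotype shown for spleen 1. In kidney 3 every long clonotype had 1 UMI, and none is shown.
spleen 1, Trbv13-2 and Trbj2-5, 50 UMIs: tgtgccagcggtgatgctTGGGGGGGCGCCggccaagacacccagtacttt
spleen 2, Trbv17 and Trbj2-1, 25 UMIs: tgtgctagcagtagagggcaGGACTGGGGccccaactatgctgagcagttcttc
spleen 3, Trbv2 and Trbj1-4, 8 UMIs: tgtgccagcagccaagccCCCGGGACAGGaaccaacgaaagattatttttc
kidney 1, Trbv1 and Trbj2-7, 3 UMIs: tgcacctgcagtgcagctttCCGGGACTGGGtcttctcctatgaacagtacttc
kidney 2, Trbv13-3 and Trbj2-5, 4 UMIs: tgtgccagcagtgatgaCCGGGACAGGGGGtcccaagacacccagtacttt
The spleen 1 and kidney 1 sequences were matched to Trbd2, as was that of spleen 2, and those of spleen 3 and kidney 2 to Trbd1.

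The longest clonotype with at least 2 UMIs of each spleen is shown for its length. Each had 2 UMIs.
spleen 1, Trbv13-3 and Trbj2-1, 20 residues: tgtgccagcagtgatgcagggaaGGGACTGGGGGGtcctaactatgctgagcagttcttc
spleen 2, Trbv13-2 and Trbj1-4, 25 residues: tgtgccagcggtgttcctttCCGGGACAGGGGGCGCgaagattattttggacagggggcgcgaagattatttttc
spleen 3, Trbv16 and Trbj2-2, 21 residues: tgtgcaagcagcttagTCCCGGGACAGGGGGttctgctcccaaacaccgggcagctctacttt
The 25-residue CDR3 of spleen 2 was the longest of all coding clonotypes. It held the 25-base run ggacagggggcgcgaagattatttt at 2 places, so that 33 of its bases were matched to no segment and counted as inserted. In the CDR3s of spleens 1 and 3 the longest run present at 2 places had 6 bases.

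The 3 clonotypes below are the long ones that had the most UMIs among those found in more than 1 spleen, 5 UMIs each over spleens 1 and 2, and were chosen after their values were seen.
spleens 1 and 2, Trbv5 and Trbj2-3: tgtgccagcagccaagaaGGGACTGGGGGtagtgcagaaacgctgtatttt
spleens 1 and 2, Trbv5 and Trbj1-6: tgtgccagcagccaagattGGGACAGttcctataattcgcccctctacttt
spleens 1 and 2, Trbv13-2 and Trbj2-4: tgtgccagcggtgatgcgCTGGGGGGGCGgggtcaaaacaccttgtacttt
These held 1, 1 and 3 inserted bases. The CDR3s with the most UMIs held 3, 8 and 4 in spleens 1, 2 and 3, and 8 and 3 in kidneys 1 and 2.

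The kidney libraries were far smaller than the spleen libraries. They held 473 to 760 coding clonotypes and 693 to 1248 UMIs, against 78078 to 140429 clonotypes and 97735 to 224811 UMIs in the spleens, and each UMI was read 465 to 784 times on average in the kidneys and 8.54 to 21.2 times in the spleens. Reads per UMI of long clonotypes were 12.8, 8.41 and 21.0 in spleens 1 to 3, against 12.996, 8.52 and 21.1 for clonotypes of 12 to 16 residues. The mean lowest base quality of the CDR3 was 47.9, 48.8 and 47.0 for long clonotypes, against 48.4, 49.2 and 47.3. A clonotype counted as a possible read error when it differed by 1 base from another of the same V and J gene with at least 10 times its UMIs. None of the long clonotypes was one.

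First it was asked how frequent long CDR3s were in each organ. In the spleens, 2336, 3076 and 1675 coding clonotypes were long, a share of 2.13%, 2.19% and 2.15% (mean 2.15% ± 0.0327, SD, n = 3). In the kidneys, 11, 23 and 8 were long, a share of 2.28% (95% exact binomial interval 1.14 to 4.04), 3.03% (1.93 to 4.51) and 1.69% (0.733 to 3.31), with a mean of 2.33% ± 0.669 (SD, n = 3). The 3 kidney values lay on both sides of the spleen values, and each kidney interval included them. The difference of 0.178 percentage points did not pass an exact two-sided permutation test of 3 against 3 libraries (p = 0.7, smallest possible 0.1), and its sign turned when clonotypes of 1 UMI were left out (-0.287). Of all UMIs, long clonotypes took 1.96%, 2.02% and 2.05% in the spleens and 2.20%, 2.404% and 1.15% in the kidneys (exact permutation p = 1). The intervals cover counting error only, since PCR reads and UMIs of 1 cell are not independent.

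Long CDR3s were the outer end of a smooth length distribution. In the spleens, 31.1% ± 0.0833 (SD, n = 3) of coding clonotypes had 14 residues, the most frequent length, 7.58% ± 0.0568 had 16 and 1.77% ± 0.0310 had 17. Just outside the threshold stood 8300, 10584 and 5968 clonotypes of 16 residues, and just inside it 1906, 2524 and 1380 of 17. The share fell to 0.328% at 18 residues, 0.0494% at 19 and 0.00742% at 20. In the kidneys 36 of the 42 long clonotypes had 17 residues and 6 had 18, and no kidney clonotype was longer.

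**Figure D1:**
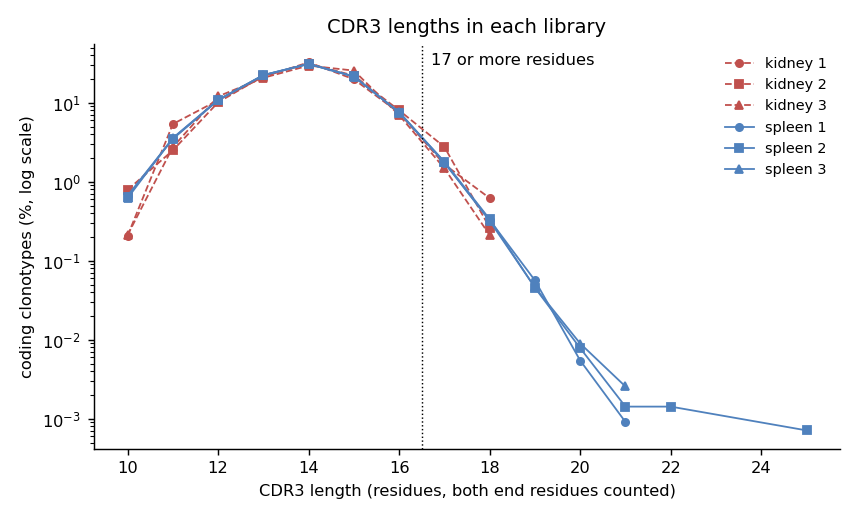
Share of coding clonotypes (log scale, percent) at each CDR3 length from 10 residues upward, 1 line per library. The 3 spleen lines lie on each other up to 18 residues, and the kidney lines end at 18.

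Long clonotypes were then compared with clonotypes of 12 to 16 residues, the reference class, for their D segment. In the spleens Trbd2 was the best-matching D segment of 63.0%, 63.8% and 63.3% of long clonotypes, against 28.5%, 27.8% and 29.1% of those of 12 to 16 residues. The difference was 34.9 percentage points ± 0.934 (SD, n = 3), in the same direction in 3 of 3 spleens. An exact two-sided sign-flip test over 3 libraries cannot go below p = 0.25, which it gave here and for each within-library difference below that went 1 way in 3 of 3 libraries. Trbd1 was matched in 30.4% ± 0.453 of long and 36.7% ± 0.550 of 12 to 16 residue clonotypes. A clonotype without any D match was rare among the long (2.69% ± 0.626) and common in the reference class (26.8% ± 0.151). A short D remnant can match neither segment or both, so part of the reference class has no D call: a single D segment was assigned to 93.7% of long and 65.2% of reference clonotypes. In the kidneys the Trbd2 share was 72.7%, 43.5% and 50% of 11, 23 and 8 long clonotypes, against 29.3%, 26.5% and 28.5% of the reference class, higher in 3 of 3 kidneys.

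D segment runs were also searched for directly, without the aligner's call. The run GGGACT, present in Trbd2 and not in Trbd1, was found as written in 25.3%, 26.1% and 26.7% of long CDR3s in the spleens, against 7.34% ± 0.187 (SD, n = 3) of the reference class. GGGACA, which marks Trbd1, was in 18.98% ± 1.18 of long and 17.5% ± 0.228 of reference CDR3s. A GGGACA followed by a GGGACT in the same CDR3, as a join of both D segments would leave, was rare in both classes, at 7, 12 and 6 long clonotypes (0.349% ± 0.0459) against 0.143% ± 0.00759. Trbd2 lies downstream of the Trbj1 cluster and cannot reach it by deletional joining. Among clonotypes with a Trbj1 gene Trbd2 was assigned to 5.97% ± 0.655 of the long and 5.32% ± 0.131 of the reference class, which gives the size of D calls that gene order does not allow. Among clonotypes with a Trbj2 gene it was assigned to 80.0% ± 0.790 and 40.9% ± 0.376.

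Measured in bases as assigned by the aligner, the D segment was also the part that grew most. A clonotype without a D match counts no D bases, and any D remnant in it counts as inserted. Such clonotypes were 2.69% of the long and 26.8% of the reference class in the spleens. Part of the D difference therefore comes from the share of clonotypes with a D match. Long CDR3s of the spleens held on average 9.57 D bases ± 0.0331 (SD, n = 3) against 5.41 ± 0.0192, 20.5 J bases against 18.4, 15.0 V bases against 13.8, 2.43 palindromic bases against 1.08 and 4.19 inserted bases ± 0.0812 against 3.09 ± 0.0221. All 5 parts were longer in all 3 spleens. Because the long class was chosen by the sum of these parts, longer parts follow at least in part from the choice, and no test was made. Untrimmed J ends were found in 53.1% ± 1.31 of long and 28.5% ± 0.148 of reference clonotypes, and untrimmed V ends in 44.9% ± 0.870 and 27.3% ± 0.0271. CDR3s with no inserted base were less frequent among the long, at 6.29% ± 0.505 against 13.2% ± 0.243. In the kidneys the long CDR3s held 9.38 D bases ± 0.335 against 5.41 ± 0.228, and 0 of 42 lacked inserted bases, which allows a share of up to 7.14%.

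**Figure D2:**
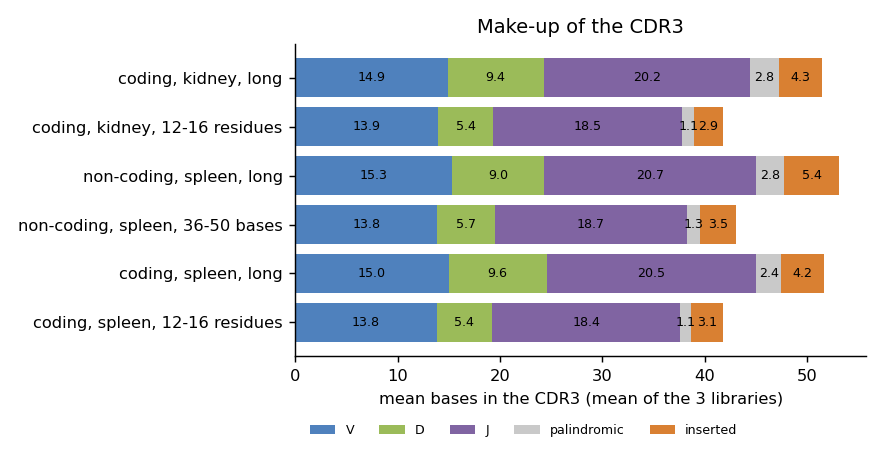
Mean number of bases of each origin in the CDR3 (means of the 3 libraries of an organ), for long clonotypes and the reference class of 12 to 16 residues or, for non-coding clonotypes, 36 to 50 bases. The D part grows from 5.4 to 9.6 bases in coding spleen clonotypes, and the inserted part from 3.1 to 4.2. Clonotypes without a D match count no D bases.

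Trbd2 can be read in 3 frames. In long spleen clonotypes matched to Trbd2, the frame that reads Thr-Gly-Gly made up 37.2%, the frame that reads Asp-Trp-Gly-Gly 29.7% and the frame that reads Leu-Gly-Gly 33.1%. In the reference class the shares were 37.0%, 30.8% and 32.2%. Glycine runs of these kinds were also counted over all clonotypes of a class, whatever their D match, and were more frequent in long CDR3s. Some clonotypes matched to Trbd1 hold Thr-Gly-Gly too. A longer CDR3 has more positions for such a run, and the shares were not adjusted for this. Thr-Gly-Gly occurred in 20.5%, 21.1% and 21.9% of long CDR3s and 6.15%, 6.24% and 6.14% of reference CDR3s, Leu-Gly-Gly in 15.9% and 4.39%, Asp-Trp-Gly in 9.97% and 3.85%, and Trp-Gly-Gly in 10.6% and 2.47%.

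Next, J gene use of long clonotypes was compared with that of clonotypes of 12 to 16 residues over the 3 spleens. Counts of clonotypes per gene were tested with edgeR's quasi-likelihood test with a term for the mouse, and p-values were adjusted by Benjamini-Hochberg. Of 12 J genes tested, 10 (83.3%) passed an adjusted p of 0.05, 5 higher and 5 lower. The J genes differ in how many germline bases they bring into a CDR3, from 19 (Trbj2-7) and 20 (Trbj1-1, Trbj1-2) to 25 (Trbj1-6). Since J bases are part of the length that sets the classes, differences between J genes follow at least in part from the choice. The adjusted p-values therefore do not measure a use of J genes apart from CDR3 length, in coding or non-coding clonotypes.

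Among the genes that fell, the short J segments led, but germline length did not set a strict order. Trbj1-5 and Trbj1-4, with 22 and 23 germline bases, fell, while Trbj2-3 and Trbj2-4, with 21 each, rose. Trbj1-1 (chr6:41533864-41533911) was used by 1.46%, 1.20% and 1.37% of long clonotypes and by 10.1%, 10.3% and 9.77% of the reference class, a log2 fold change of -2.93 (adjusted p = 1.6e-18). For Trbj1-2 the shares were 1.03% ± 0.222 and 5.49% ± 0.297 (SD, n = 3) with a log2 fold change of -2.39. Trbj2-7, the most used J gene of the reference class (16.53% ± 0.304), was used by 3.83% ± 0.670 of long clonotypes (log2 fold change -2.15, adjusted p = 1.55e-14). Trbj1-5 fell by 0.81 on the log2 scale, a call lost without spleen 2 (adjusted p = 0.0565). Trbj1-4 fell by 0.15 (adjusted p = 0.0206), and was lower in 2 of 3 spleens. That call was lost in 9 of 12 alternatives: with DESeq2 (adjusted p = 0.0569), with UMIs in place of clonotypes, without the mouse as a block, with at least 2 UMIs, with 18 or more residues, against all clonotypes of 16 or fewer residues, and when any spleen was left out, with adjusted p from 0.0518 to 0.744.

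Among those that rose, Trbj2-2 (chr6:41542957-41543007, 23 germline bases) was used by 14.3%, 12.8% and 13.9% of long clonotypes and 6.15%, 5.94% and 6.42% of the reference class (log2 fold change 1.15, adjusted p = 1.68e-17). The groups did not overlap, which also held for most other J genes, among them Trbj1-3, which did not pass. Trbj2-3 was the most used J gene of long clonotypes, at 19.5% ± 0.293 against 10.2% ± 0.199 (log2 fold change 0.94). Trbj2-4 reached 16.4% ± 0.156 against 9.26% ± 0.185 (0.83), Trbj1-6 5.50% ± 0.736 against 3.32% ± 0.193 (0.72) and Trbj2-1 11.4% ± 0.751 against 9.38% ± 0.27 (0.29). Trbj1-3 (log2 fold change 0.11, adjusted p = 0.117) and Trbj2-5 (-0.07, adjusted p = 0.44) did not pass. Within a gene, 4.79% ± 0.150 of all Trbj2-2 clonotypes were long, against 0.284% ± 0.0270 of all Trbj1-1 clonotypes.

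V genes were compared in the same way, and of 24 tested 17 (70.8%) passed, 6 higher and 11 lower. V bases are part of the CDR3 length as well, so the limit given for J genes holds here too. Trbv5 (chr6:41062359-41062803) carried more of the long clonotypes than any other V gene, at 24.0%, 23.6% and 21.1%, against 9.51%, 9.34% and 9.12% of the reference class (log2 fold change 1.31, adjusted p = 1.58e-35). It gave 1641 of the 7087 long spleen clonotypes, and 5.30% ± 0.274 of all its clonotypes were long. Trbv1 rose from 10.8% ± 0.571 to 15.4% ± 0.680 (log2 fold change 0.52), Trbv2 from 4.32% ± 0.445 to 7.11% ± 0.731 (0.72) and Trbv17 from 1.59% ± 0.0409 to 2.31% ± 0.279 (0.52). The Trbv17 call was lost without spleen 1 (log2 fold change 0.59, adjusted p = 0.0836), with 18 or more residues (0.62, adjusted p = 0.0531) and with at least 2 UMIs (0.15, adjusted p = 0.567).

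The largest rise was that of Trbv24, a V gene with few coding clonotypes. It was used by 15, 14 and 12 long clonotypes (0.642%, 0.455% and 0.716%) and by 0.186%, 0.164% and 0.134% of the reference class, with a log2 fold change of 1.82 (adjusted p = 2.43e-06). Its rise did not pass with clonotypes of at least 2 UMIs (1.40, adjusted p = 0.567) or with 18 or more residues as long (1.25, adjusted p = 0.361).

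The V genes that fell included some with a short germline part. Trbv20 (chr6:41188273-41188977), which brings 14 germline bases into the CDR3, was used by 18, 29 and 8 long clonotypes, or 0.771%, 0.943% and 0.478%, against 4.22%, 4.54% and 4.14% of the reference class (log2 fold change -2.48, adjusted p = 4.95e-21). Trbv30, with 14 germline bases as well, was used by 1 long clonotype, in spleen 2, and by 236, 308 and 159 reference clonotypes (adjusted p = 2.20e-04), and no fold change is given for a single clonotype. The Trbv30 call was lost with at least 2 UMIs (adjusted p = 0.274) and with 18 or more residues (adjusted p = 0.201). Trbv4 fell by 1.42, Trbv26 by 1.25 and Trbv19 by 1.14 on the log2 scale, although each of them brings 16 or 17 germline bases.

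What a V gene keeps after trimming differed from what it starts with. In the reference class Trbv4 kept 12.6 of its 17 germline bases on average, Trbv19 13.1 of 16 and Trbv26 13.8 of 17, whereas Trbv5 kept 15.4 of 17 and Trbv2 15.5 of 17. Across the 24 V genes, the log2 fold change between the length classes went with the number of bases kept in the reference class (Pearson's r = 0.80, Spearman's rho = 0.81), more closely than with the germline number (0.57 and 0.46). Across the 12 J genes the values were 0.70 and 0.67 for bases kept and 0.67 and 0.55 for germline bases. In non-coding clonotypes the V gene values were 0.33 and 0.45 for bases kept and 0.31 and 0.51 for germline bases. These were lower than in coding clonotypes, except rho for germline bases, which was higher (0.51 against 0.46). Those of the J genes were 0.77 and 0.73 for bases kept and 0.72 and 0.62 for germline bases. The V gene values include genes with almost no long clonotypes, whose fold changes have no reliable size. Trbv30 had 1 long coding clonotype in the spleens, and Trbv21 and Trbv30 had 0 long non-coding ones. Values without these genes were not computed. Bases kept were counted in coding clonotypes of the spleens, also where they are set beside non-coding fold changes. V and J bases are part of the length that sets the classes, so a positive relation follows at least in part from the choice. Genes of 1 library share its depth and are not independent replicates, so these are descriptions, with no test.

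**Figure D3:**
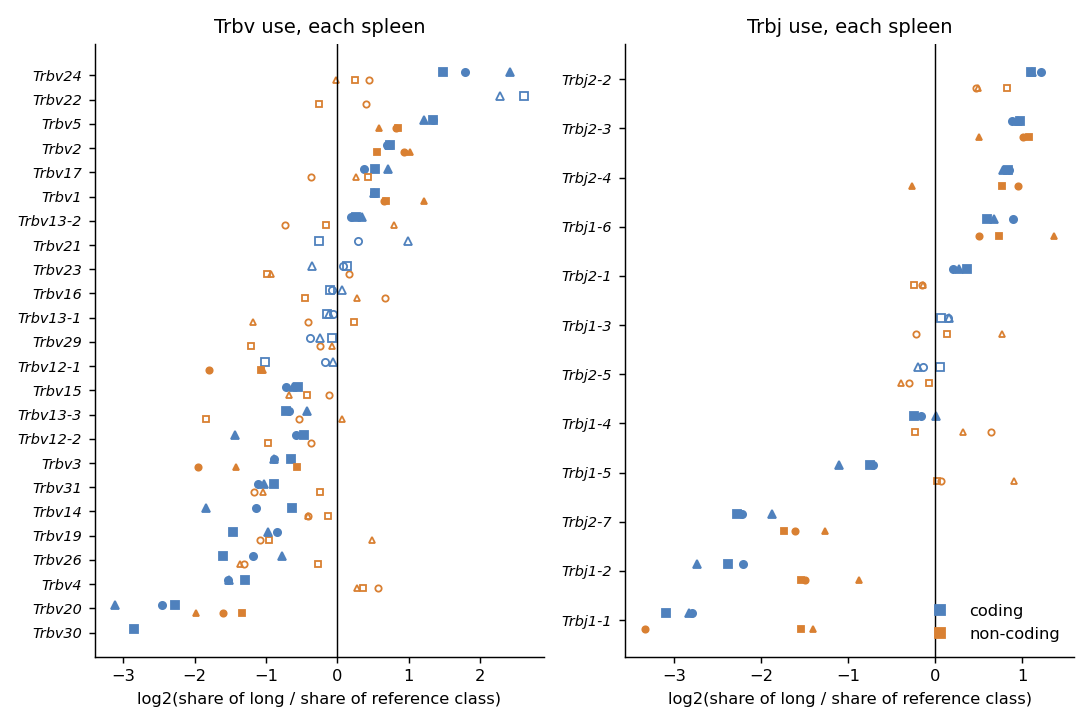
log2 ratio of the share of long clonotypes to the share of the reference class that used each Trbv gene (left) and Trbj gene (right), 1 symbol per spleen (circle, square and triangle for spleens 1, 2 and 3), coding in blue and non-coding in orange, filled where the edgeR adjusted p was under 0.05. A gene with 0 long clonotypes in a spleen has no symbol there. Trbj1-1, Trbj1-2 and Trbj2-7 lie lowest in both kinds of clonotype.

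Non-coding rearrangements, which hold a stop codon or a shifted frame and give no receptor, were then set beside the coding ones, since their loops meet no selection on the receptor. With 51 or more bases as long, 245, 321 and 141 non-coding clonotypes of the spleens were long, 3.27%, 3.24% and 3.12% of all non-coding ones, against 2.13%, 2.19% and 2.15% of coding ones. The difference was 1.06 percentage points ± 0.0848 (SD, n = 3), higher in 3 of 3 spleens. Its size depended on the threshold, because a coding CDR3 can have 48 or 51 bases and nothing between, and a shifted frame 49, 50 or 52. With 49 or more bases as long the non-coding share was 10.5% and the difference 8.31. Over the alternatives run, left-out mice aside, the difference ran from 0.354 to 8.31 percentage points. In-frame non-coding clonotypes, which differ from coding ones only by a stop codon, were long in 25 of 298, 39 of 364 and 18 of 189 cases (mean 9.54%). A longer CDR3 has more codons that can be a stop, so this class is not a measure of length before selection. In the kidneys 0 of 29, 0 of 49 and 3 of 35 non-coding clonotypes were long, where a count of 0 allows up to 10.3% and 6.12%.

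J gene use of long non-coding clonotypes differed from that of non-coding clonotypes of 36 to 50 bases for 6 of 12 J genes (50%). The 3 that fell were Trbj1-1 (log2 fold change -1.92), Trbj2-7 (-1.59) and Trbj1-2 (-1.38), and the 3 that rose were Trbj2-3 (0.93), Trbj1-6 (0.81) and Trbj2-4 (0.66). All of them moved in the same direction in coding clonotypes, and of all J genes 9 of 12 did. Trbj2-1, Trbj1-4 and Trbj1-5, which were called in coding clonotypes, had the opposite sign here and were not called. Trbj2-4 was higher among long non-coding clonotypes in 2 of 3 spleens and lower in spleen 3 (7.80% against 9.39%). Trbj2-7 was used by 4.90%, 4.67% and 6.38% of long and by 15.0%, 15.6% and 15.3% of shorter non-coding clonotypes. These calls rest on few clonotypes: 0 of 12 passed in edgeR without spleen 2 (1 at an unadjusted p under 0.05) and 3 passed without spleen 1.

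For V genes 7 of 24 passed (29.2%), with Trbv5 (0.79, adjusted p = 0.000306), Trbv2 (0.81) and Trbv1 (0.77) higher and Trbv20 (-1.55), Trbv12-1 (-1.28) and Trbv3 (-1.05) lower. Trbv21, the 7th, was used by 0 long and 48, 41 and 24 shorter non-coding clonotypes. None passed in edgeR without spleen 1 or without spleen 2, where 5 and 5 had an unadjusted p under 0.05. The Trbv3 value was -1.75 without spleen 2. Trbv4 went the other way from its coding value: it was used by 14.1% ± 1.62 (SD, n = 3) of long and 10.7% ± 0.0943 of shorter non-coding clonotypes (log2 fold change 0.41, adjusted p = 0.0502), against -1.42 in coding ones. The difference between coding and non-coding values was not tested. Long non-coding CDR3s held 8.996 D bases ± 0.0935 against 5.70 ± 0.110, close to the coding 9.57, and 5.35 inserted bases ± 0.0622 against 3.501 ± 0.0634.

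The residues of the loop were counted after the first 4 and the last 6 positions of each CDR3, which come mostly from V and J, were left out. Of 20 amino acids 16 (80.0%) passed between long and reference clonotypes of the spleens, 7 higher and 9 lower. Glycine, the most frequent loop residue, made up 31.0%, 30.5% and 31.0% of long loops and 26.8%, 26.9% and 27.0% of reference loops (log2 fold change 0.20, adjusted p = 0.000774). The largest rises were those of cysteine, tryptophan and tyrosine. Tryptophan rose from 2.39% ± 0.0976 to 3.00% ± 0.0778 (0.34) and tyrosine from 1.18% ± 0.00663 to 1.45% ± 0.0407 (0.29). The tyrosine value turned to -0.15 when all CDR3 residues were counted. Cysteine, which is rarely found inside a CDR3, was seen in the loop of 3 long clonotypes of each spleen, 9 residues in all (log2 fold change 1.57, adjusted p = 0.0102). Its call was lost in each fit without 1 of the spleens, without the mouse as a block (adjusted p = 0.0718) and with 18 or more residues (adjusted p = 0.0514), and its value turned to -0.25 when all CDR3 residues were counted.

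The largest falls were those of methionine (log2 fold change -0.82), isoleucine (-0.51) and glutamate (-0.44). Methionine made up 0.159% ± 0.0380 of long and 0.284% ± 0.0236 of reference loops, and glutamate 2.43% ± 0.178 and 3.34% ± 0.0285. Glutamine (-0.34) and aspartate (-0.25) were lower as well. With all CDR3 residues counted, methionine (-0.43, adjusted p = 0.0725) and isoleucine (-0.11, adjusted p = 0.196) no longer passed.

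It was then asked how often the same long clonotype arose in more than 1 mouse. In the spleens, 15, 19 and 10 long clonotypes were also found in another spleen, 0.642%, 0.618% and 0.597% of the long ones. Of clonotypes of 12 to 16 residues, 7.61%, 6.51% and 8.77% were found in another spleen, a difference of -7.01 percentage points ± 1.14 (SD, n = 3), with long clonotypes lower in 3 of 3 spleens (exact sign-flip p = 0.25). With CDR3 amino acid sequences in place of clonotypes the shares were 2.61% and 21.6%. Spleens 1 and 2 shared 12 long clonotypes (0.514% and 0.390% of their long clonotypes), spleens 1 and 3 shared 3 (0.128% and 0.179%), and spleens 2 and 3 shared 7 (0.228% and 0.418%). No long clonotype was in all 3 spleens, against 1278 clonotypes of 12 to 16 residues.

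Sharing fell with each added residue across and beyond the threshold. From 11.4% ± 1.72 (SD, n = 3) at 12 residues it went to 8.33% ± 1.22 at 14, 5.09% ± 0.755 at 15, 2.15% ± 0.289 at 16, 0.717% ± 0.0675 at 17 and 0.204% ± 0.200 at 18. Of 194 clonotypes of 19 or more residues none was shared, which allows a share of up to 1.55%. The mean number of inserted bases was 3.04 ± 0.0325 at 14 residues, 3.398 ± 0.0345 at 16, 3.96 ± 0.0862 at 17 and 4.81 ± 0.272 at 18.

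The 22 long clonotypes that were shared held few inserted bases. Of these, 21 had 17 residues, as did 5810 of all 7087 long spleen clonotypes, and 11 used Trbv5. In spleens 1, 2 and 3 the shared long clonotypes held 1.47, 1.26 and 1.20 inserted bases on average, against 4.20, 4.12 and 4.29 in the long clonotypes of a single spleen. No inserted base was found in 36.7% ± 3.33 (SD, n = 3) of shared and 6.10% ± 0.506 of unshared long clonotypes. They also held more D bases (10.5 ± 0.239 against 9.57 ± 0.0332). In the reference class shared clonotypes held fewer inserted bases too, 1.70 ± 0.00830 against 3.21 ± 0.00801, but fewer D bases (4.28 ± 0.0314 against 5.50 ± 0.0362).

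**Figure D4:**
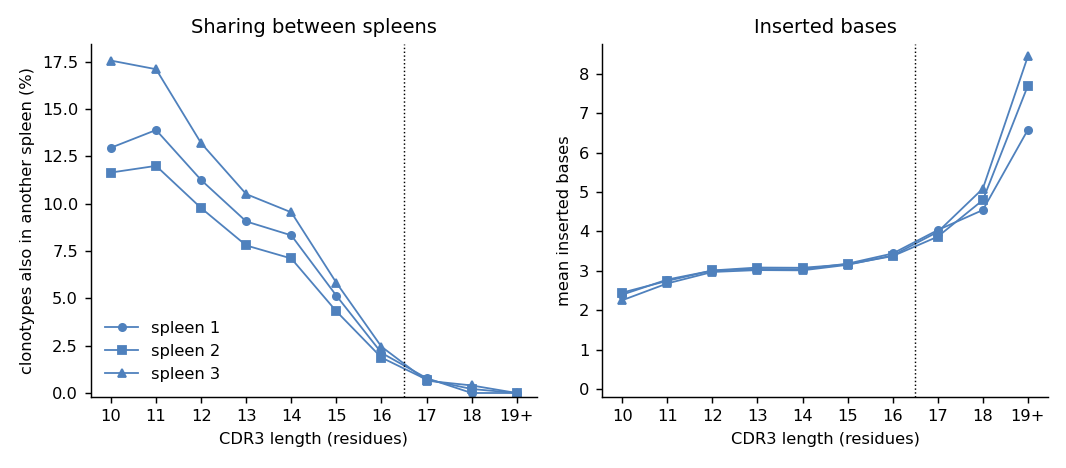
Share of coding clonotypes of each CDR3 length that were also in another spleen (left, percent) and their mean number of inserted bases (right), 1 line per spleen. Sharing drops from 8.33% at 14 residues to 0.717% at 17 and to 0 at 19 or more.

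Clone size differed little between the length classes. Long clonotypes of the spleens had 1.35, 1.48 and 1.20 UMIs on average, against 1.45, 1.60 and 1.25 for those of 12 to 16 residues, a mean log2 ratio of -0.10 ± 0.03 (SD, n = 3), lower in 3 of 3 spleens (exact sign-flip p = 0.25). Of the long clonotypes 75.9%, 67.7% and 84.1% had 1 UMI, against 72.3%, 65.0% and 82.0%. Among those with 10 or more UMIs were 2, 5 and 0 long clonotypes (0.0856%, 0.163% and 0%), and 0.239%, 0.280% and 0.0795% of the reference class. More cells of a clone and more β chain mRNA per cell cannot be told apart from UMIs.

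The spread of size between spleens followed the library and not the length class, since in both classes spleen 2 had the most and spleen 3 the fewest UMIs per clonotype. The largest long clonotype, the Trbv13-2 one of spleen 1 with 50 UMIs, ranked 21st of that library by UMIs. A Trbv1 clonotype with Trbj2-5 had 25 UMIs there and a Trbv5 clonotype with Trbj2-1 had 8. In spleen 2 the Trbv17 clonotype had 25 UMIs and a Trbv1 clonotype with Trbj2-3 had 18. In spleen 3 the Trbv2 clonotype had 8 UMIs and a Trbv13-2 clonotype with Trbj2-2 had 7.

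**Figure D5:**
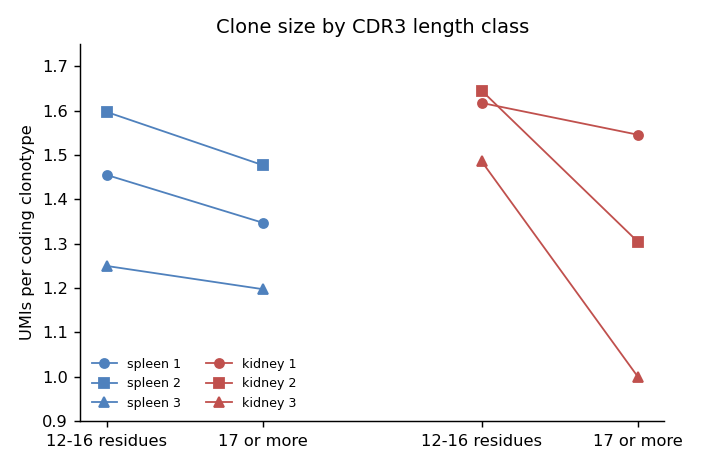
UMIs per coding clonotype (vertical axis from 0.9) for clonotypes of 12 to 16 residues and for long ones, with a line joining both classes of 1 library. Each of the 6 lines runs downward.

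The mean size of the 42 long clonotypes of the kidneys was 1.55, 1.30 and 1 UMIs, against 1.62, 1.65 and 1.49 for kidney clonotypes of 12 to 16 residues, a mean log2 ratio of -0.32 ± 0.25 (SD, n = 3; lower in 3 of 3 kidneys, exact sign-flip p = 0.25). Without kidney 3 the ratio was -0.20, and without kidney 1 it was -0.45. The largest had 3, 4 and 1 UMIs, against 20, 40 and 33 in the reference class, and 35 of the 42 had 1 UMI. The share with 1 UMI was 63.6% and 87.0% of long clonotypes in kidneys 1 and 2 and all 8 in kidney 3, against 73.6%, 77.2% and 75.5% of reference clonotypes, so that kidney 1 went the other way from kidneys 2 and 3 (mean difference 8.09 percentage points ± 17.3, SD, n = 3; exact sign-flip p = 0.75), and without kidney 3 the difference was -0.119. None had 10 or more UMIs, which allows a share of up to 7.14%, while 1.35%, 1.27% and 0.445% of kidney clonotypes of 12 to 16 residues did.

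Of the long kidney clonotypes 3 of 11, 7 of 23 and 3 of 8 were also in the spleen of the same mouse, 27.3%, 30.4% and 37.5%. For kidney clonotypes of 12 to 16 residues the shares were 48.4%, 51.1% and 43.4%, so that long ones were lower in 3 of 3 mice, with a mean difference of -15.9 percentage points ± 8.66 (SD, n = 3; exact sign-flip p = 0.25). With 18 or more residues, 3, 2 and 1 kidney clonotypes remained, of which 1 in each mouse was in its spleen, and the mean difference turned to 13.5 percentage points (exact sign-flip p = 1.0). None of the 42 was in the spleen of another mouse, against 9.01%, 9.58% and 11.6% of the reference class. A count of 0 allows up to 7.14%, a limit that pools the 3 kidneys and takes clonotypes as independent. With CDR3 amino acid sequences in place of clonotypes, 1 long one of kidney 1 (9.09%) was in another spleen, and 0 of kidneys 2 and 3. The reference shares were then 27.4%, 27.9% and 31.7%. Among the long kidney clonotypes that were found in both organs were the Trbv13-2 clonotype with Trbj2-5 (3 UMIs in kidney 1, 50 in spleen 1), a Trbv13-2 clonotype with Trbj1-4 (3 in kidney 2, 15 in spleen 2) and the Trbv2 clonotype with Trbj1-4 (1 in kidney 3, 8 in spleen 3). The Trbv1 clonotype with Trbj2-7 of kidney 1 had 3 UMIs there and 1 in spleen 1. In kidney 2 the Trbv13-3 clonotype with Trbj2-5 (4 UMIs) had 1 UMI in spleen 2, and a Trbv2 clonotype with Trbj2-2 (3 UMIs) had 2.

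Between the organs no V or J gene use of long clonotypes passed the edgeR test. With kidney against spleen 0 of 21 V genes (0.0%) and 0 of 12 J genes (0.0%) were called. At an unadjusted p under 0.05 the counts were 1 and 0, and DESeq2 called none either, with 5 and 0 at an unadjusted p. The 3 Trbv13 genes carried 18 of the 42 long kidney clonotypes, Trbv5 carried 9 and Trbv1 6, and 30 of the 42 used a Trbj2 gene. These comparisons rest on 8 to 23 long clonotypes per kidney.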

How the data were processed

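The authors deposited 1 clonotype table per library, made with MiXCR (v4.7.0), with UMI counts and read counts per clonotype and the fractions of each. The submitters' processing notes name GRCm38 and mm10. UMIs were counted per molecule, so PCR copies of 1 molecule add no count, but each deposited count still depends on sequencing depth and on the errors left after MiXCR's correction. Minimum CDR3 quality is a score deposited by the authors. Only coding clonotypes entered, unless non-coding is stated.

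The first-listed V, D and J hits were used, with equal top scores for both D segments counted as either. Bases per segment came from MiXCR's reference points. V, J and residue counts were tested with edgeR (4.0.16, R 4.3.3, library sizes as totals, at least 10 clonotypes over the columns, mouse as a term in the spleen comparisons), with DESeq2 (1.42.0) as an alternative. Other comparisons used exact permutation or sign-flip tests over libraries (Python 3.11.15), which at this size cannot reach p = 0.05. Exact binomial intervals were computed with SciPy 1.17.1. Kidney and spleen libraries were paired by the matching number in their titles, which name no mouse. The study compared the kidneys with the spleens of the same mice. The fits were tested on simulated Poisson counts without added variation between mice. Such counts cannot show how often the fits call genes wrongly when mice vary. V, D and J gene positions were read from RefSeq by symbol (38 of 38 matched).

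The clonotypes, gene lists and tests were chosen with earlier results of these data known. Text names all J genes, the 5 V genes with the largest rise and the 5 with the largest fall among those called, the 3 amino acids at each end, and for clonotypes the 3 largest long ones per library without ties and the longest with at least 2 UMIs. The motifs GGGACA and GGGACT were searched on the coding strand only. Alternatives varied the clonotype definition, UMI and read minimums, length thresholds, reference class, normalization, count filter, pairing and left-out mice.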

Additional observations from a re-analysis of the deposited data

How the results depend on the processing

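The share of long clonotypes in kidney against spleen (0.178 percentage points) had no stable sign. It was -0.00137 for CDR3 amino acid clonotypes, -0.287 with at least 2 UMIs, -0.0222 with 18 or more residues, and -0.152 to 0.493 when 1 mouse was left out. The share of UMIs (-0.0928) became 0.174 with at least 20 reads and 0.0956 with reads in place of UMIs, and ran from -0.331 to 0.309 when 1 mouse was left out. With the mouse as a block (replicate block) the first share kept its value of 0.178 (exact sign-flip p = 0.75), and the block changed no call between the organs. Without the block, spleen fits called 17 V genes and 9 J genes, and the other comparisons within libraries, run without pairing, gave the same values and reached an exact permutation p of 0.1 at the lowest. Among the kidney results, the Trbd1 difference (-5.09) ran from -14.6 to 0.167 without 1 mouse, the share with 1 UMI (8.09) from -0.119 to 17.1, and the non-coding difference (0.525) from -2.65 to 2.3, and was -1.63 with at least 2 UMIs. Kidney clonotypes found in the same spleen turned from -15.9 to 13.5 with 18 or more residues. For these reversals the cause was not tested.

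In the spleens, the differences in D use, sharing, clone size and non-coding share kept their direction under all alternatives run. V genes called fell from 17 to 11 with 18 or more residues, and ran from 14 to 16 without 1 mouse. Non-coding V genes called (7) ran from 0 to 5 without 1 mouse, and non-coding J genes (6) from 0 to 7. Counting all CDR3 residues turned cysteine to -0.25 and tyrosine to -0.15, and the cause was not tested. Kidney values are limited by 8 to 23 long clonotypes per library.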
